A study of Mus musculus with 2 samples.

Results

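The genes described here encode proteins of the mitochondrial ribosome. They are every gene on the array whose symbol starts with Mrpl or Mrps followed by a digit, a rule that uses names and no measured value. Of 36413 genes and noncoding intervals named on the array, 77 met that rule, 47 with a large subunit name (Mrpl) and 30 with a small subunit name (Mrps). Erythroid progenitors that lacked lineage markers came from fetal liver of C57BL/6 mice at the E14.5 stage. They had been transduced with the long noncoding RNA ESlncRNA or with the vector, and GFP-positive cells had been sorted. RNA of the ESlncRNA cells carried the dye Cy5 and RNA of the vector cells Cy3 on each of 2 arrays, one per replicate, with no dye swap, so a dye effect of a probe enters both ratios alike. Separate cultures or animals are not stated for the replicates, so the p-values measure only the spread between these arrays, which may be technical.

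The mitochondrial ribosome makes the few proteins encoded by mitochondrial DNA, all of them parts of the respiratory chain and of ATP synthase. Its RNAs come from mitochondrial DNA, whereas all of its proteins are encoded in the nucleus, made in the cytosol and imported. Some of them descend from bacterial ribosomal proteins and others have no bacterial counterpart. In erythroid cells, mitochondria also carry out the first and the last steps of haem synthesis. Grouping by subunit follows the gene names here, although structures place the proteins of Mrps30 and Mrps18a in the large subunit and the protein of Mrps36 belongs to the alpha-ketoglutarate dehydrogenase complex.

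After loess, the members had small differences, in both directions. Of 75 members tested, 25 (33.3%) were higher with ESlncRNA, 15 (20%) were lower and 35 did not pass, at an adjusted p under 0.05 in limma after loess normalization within each array, whereas median centring of the same scans gave 73 higher and 0 lower. Among all 19892 genes tested, 26.3% passed as higher and 36.8% as lower after loess. With median centring, 77.5% of all called genes were higher, against 100% of the called members. The members' median log2 ratio of ESlncRNA over vector was 0.03, with 0.02 on the array of replicate 1 and 0.06 on that of replicate 2, beside -0.03 over all genes. After loess their ratios ran from -0.54 for Mrpl48 to 0.46 for Mrpl47, and 0 of 75 differed by at least 1.5-fold on both arrays in either direction. That size was reached on each array by 3.24% of all genes upward and by 13.5% downward, also after loess. With median centring the members ran from 0.15 to 1.25, where 1.5-fold is 0.58, so their small size also depends on the normalization. The interquartile range was 0.31 over the members and 0.46 over all genes. The 2 untested members were Mrpl21 and the pseudogene Mrps36-ps1, neither of which had a probe well above background on both arrays.

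**Figure D1:**
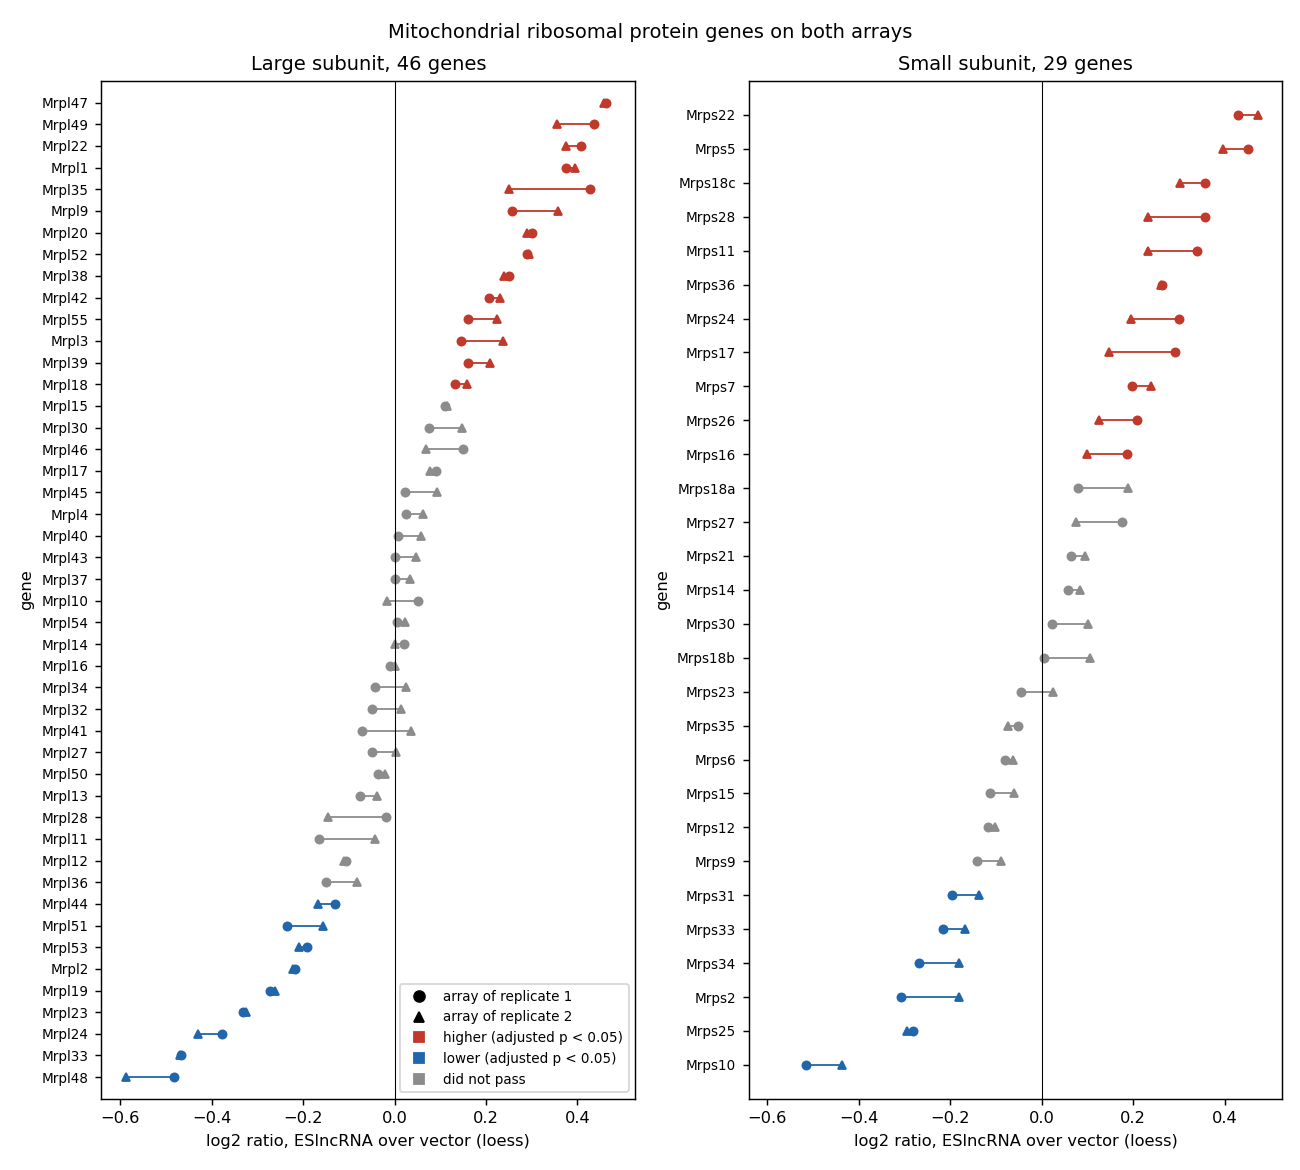
Log2 ratio of ESlncRNA over vector after loess (horizontal axis) of each tested member (vertical axis), large subunit names on the left and small subunit names on the right, with 1 point per array and colours for the limma call. The points of both arrays lie close together for most genes, and all means lie between -0.54 and 0.46. With median centring in place of loess 73 of 75 members are called higher, and 77.5% of all called genes are higher.

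The direction and the size of these differences depend on how the Cy5 and Cy3 scales are set against each other. Before normalization, the background-subtracted Cy5 signal (ESlncRNA) was above the Cy3 signal (vector) on both arrays for 75 of 75 members, as it was for 15826 of 19744 genes (80.2%). The members' median log2 ratio at that stage was 1.0 on the array of replicate 1 and 1.29 on that of replicate 2, against 0.73 and 0.93 over all genes. Loess sets this offset to about 0 at every brightness, and the members are bright: their median log2 intensity was 13.5, against 9.21 over all genes. Median centring of each array removes 1 offset for all probes, and it placed the median of all genes at 0.34 and that of the members at 0.77. With Agilent's processed signals centred on the median, the members' median was -0.09, with 5 higher and 12 lower. That median was still 0.03 above the median of all genes with these signals. The share of higher among calls was 29.4% for the members and 29.3% for all genes. The order of the members changed less than their sign. Spearman's rho of their mean ratios with those after loess was 0.86 with median centring and 0.958 with the centred processed signals, over the same 75 genes of the same scans. "Higher" and "lower" are used here for values after loess.

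**Figure D2:**
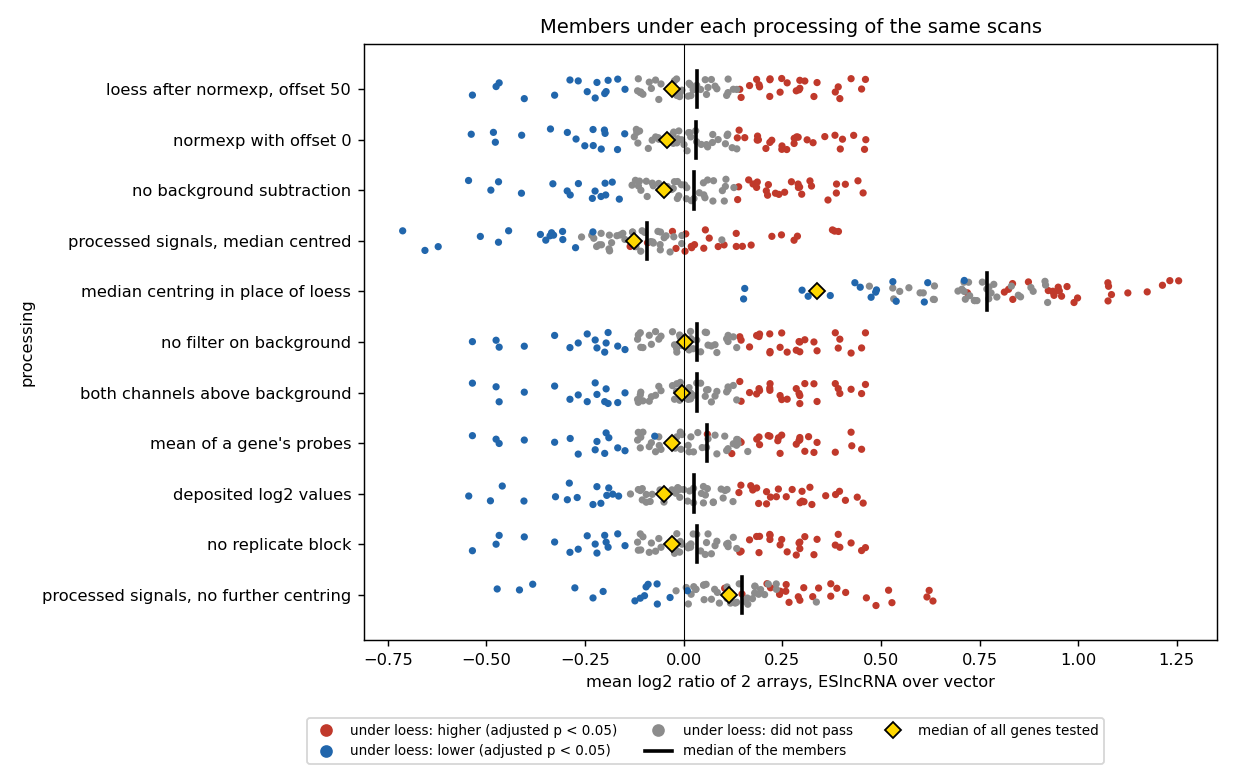
Mean log2 ratio of ESlncRNA over vector of the members (horizontal axis) under each processing of the same 2 arrays (vertical axis), 1 point per member coloured by its call after loess, with the members' median as a bar and the median of all genes tested as a diamond. The members' median sits at 0.03 after loess, at 0.77 with median centring and at -0.09 with centred processed signals.

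The highest member was Mrpl47, whose protein lines the exit of the tunnel through which a new chain leaves the large subunit. Its background-subtracted signals were 6536 (replicate 1) and 6032 (replicate 2) in the vector channel and 17688 and 19320 in the ESlncRNA channel. After loess the log2 ratios were 0.46 and 0.46 (mean 0.46, SD 0.0024, n = 2 arrays, 1.38-fold, limma adjusted p = 2.65e-04). Both arrays gave the same ratio, and 3 of 3 Mrpl47 probes were higher, by 0.20 to 0.46. Mrps22, a small subunit protein without a bacterial counterpart, had signals of 3121 and 3204 in the vector channel and 7731 and 9843 in the ESlncRNA channel. Its ratios were 0.43 and 0.47 (mean 0.45, SD 0.032, adjusted p = 3.17e-04). Mrps5, a core small subunit protein shared with bacteria, had ratios of 0.45 and 0.40 (mean 0.42, SD 0.039, adjusted p = 4.36e-04). For these genes the arrays differed by far less than the distance from 0. Mrpl22, at the same tunnel exit, had 0.41 and 0.37 (adjusted p = 5.85e-04), and Mrpl1, of the stalk beside the site where spent tRNA leaves, had 0.37 and 0.39 (adjusted p = 6.21e-04). Mrps22, Mrps5, Mrpl22 and Mrpl1 were the members called higher under all 11 processings of these arrays that gave a test, while the other 21 lost the call or turned under at least 1. Mrpl35 had the widest gap between arrays among the 10 highest, with 0.43 and 0.25 (mean 0.34, SD 0.13, adjusted p = 0.00296). Mrps18c, Mrpl9 and Mrpl20 had mean ratios of 0.33, 0.31 and 0.29, with adjusted p of 0.00137, 0.00248 and 0.00206. Mrpl49 also ranked in these 10 and is described with its probes. The other 15 higher members lay between 0.14 (Mrps16) and 0.29 (Mrps28).

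The lowest member was Mrpl48, whose protein sits in the central protuberance on top of the large subunit. Its signals were 7766 and 6978 in the vector channel and 10696 and 10547 in the ESlncRNA channel, so the unnormalized signal was the higher one with ESlncRNA even here. After loess the ratios were -0.48 and -0.59 (mean -0.54, SD 0.074, 1.45-fold lower, adjusted p = 1.98e-04), and with median centring the mean was 0.15. Mrps10, of the head of the small subunit, had -0.52 and -0.44 (mean -0.48, SD 0.056, adjusted p = 2.91e-04). Mrpl33, a small bacterial-type protein of the large subunit, had -0.47 and -0.47 (mean -0.47, SD 0.00078, adjusted p = 2.47e-04). On each array, Mrpl48, Mrps10 and Mrpl33 lay below every member that did not pass. Mrpl24 had -0.38 and -0.43 (adjusted p = 5.40e-04), and Mrpl23 had -0.33 and -0.32 (adjusted p = 0.00127). Both proteins line the tunnel exit, as do those of Mrpl47 and Mrpl22, which were higher after loess. Mrps25, Mrpl19, Mrps2, Mrps34 and Mrpl2 followed with mean ratios of -0.29, -0.27, -0.24, -0.22 and -0.22 and adjusted p between 0.00227 and 0.00881. The place of Mrps25 rests on 1 of its probes, as a second, dimmer one had -0.09 and did not pass. All 10 of these genes were above 0 with median centring, which raised nearly all members, but Mrpl48, Mrps10, Mrpl19 and Mrps2 (0.15, 0.15, 0.30 and 0.32) stayed below the median of all genes, 0.34. The last 5 lower members lay between -0.20 (Mrpl53) and -0.15 (Mrpl44), and 0 members were called lower under all 11 processings. The 35 members that did not pass ran from -0.12 (Mrpl36) to 0.13 (Mrps18a).

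Members that share a place in the ribosome differed among themselves. These places were drawn up with the values known, and the counts are a description after loess, whose signs carry the limit above. At the tunnel exit, Mrpl47 and Mrpl22 were higher and Mrpl23 and Mrpl24 lower, while Mrpl17 (0.08) and Mrpl32 (-0.02) did not pass. Mrpl45, which anchors the ribosome to the inner membrane, did not pass either, at 0.06. In the central protuberance, Mrpl38 was higher (0.24), Mrpl48 lower, and Mrpl40 (0.03) and Mrpl46 (0.11) did not pass. A second Mrpl40 probe, slightly dimmer, was higher at 0.24 (limma adjusted p = 0.0048), so the result for Mrpl40 depends on the probe. Around the peptidyl transferase centre, where peptide bonds form, Mrpl3 was higher (0.19) and Mrpl2 lower, and Mrpl16 (-0.0044) and Mrpl27 (-0.02) did not pass. A second Mrpl27 probe was higher, at 0.30. In the stalk that recruits translation factors, Mrpl10 (0.02), Mrpl11 (-0.10) and Mrpl12 (-0.11) did not pass. Of the paralogues of bacterial S18, Mrps18c was higher, and Mrps18a (0.13) and Mrps18b (0.05) did not pass. A second, dimmer Mrps18b probe was higher, at 0.21 (limma adjusted p = 0.0085). Mrps12, the decoding-site protein, had -0.11 and did not pass. By subunit, 14 of 46 large subunit names were higher and 9 lower (median 0.02), and 11 of 29 small subunit names were higher and 6 lower (median 0.07). Large subunit names with a bacterial counterpart gave 9 higher, 5 lower and 15 not passing (median 0.01), and those without one gave 5, 4 and 8 (median 0.02). Small subunit names with a bacterial counterpart gave 8 higher, 2 lower and 8 not passing (median 0.11), and those without one gave 2, 4 and 4 (median -0.04). Mrps36, which was higher (0.26), was placed in neither of these groups. The difference between these subgroups was not tested.

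Higher and lower members occurred at all brightness levels after loess. Among sets of 25 members by probe intensity, the dim ones had 10 higher and 5 lower (median 0.07), the middle ones 8 and 5 (median 0.06) and the bright ones 7 and 5 (median 0.01). Across the 75 members, mean ratio and intensity had a Pearson's r of -0.183 and a Spearman's rho of -0.115, a description over genes that share both arrays. The ratios on the array of replicate 1 and that of replicate 2 correlated at r = 0.958 and rho = 0.96 over these genes, which share the dye orientation.

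**Figure D3:**
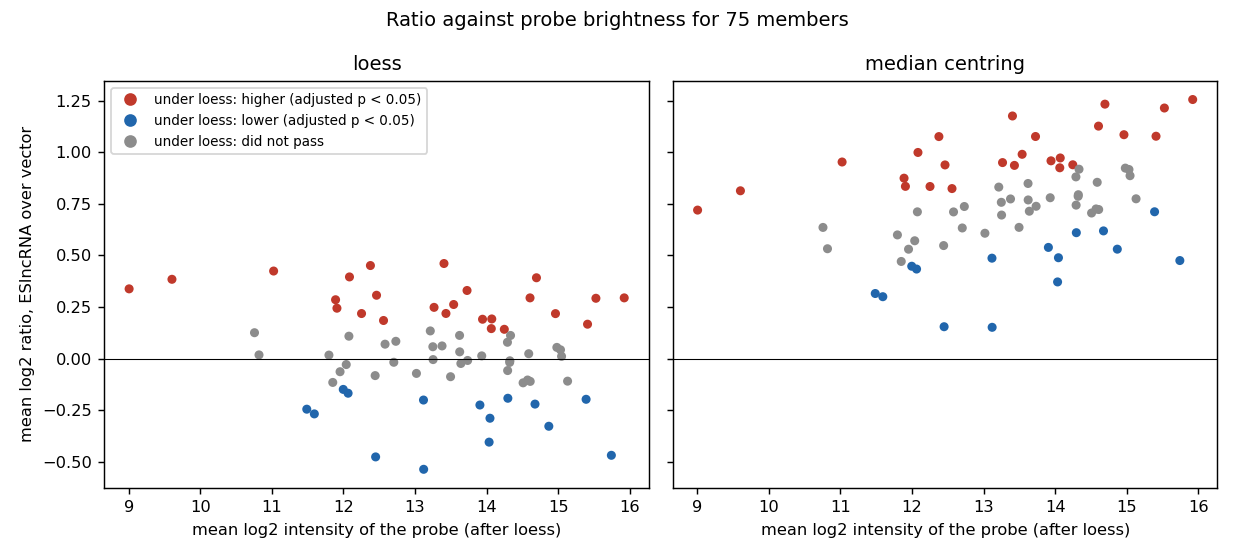
Mean log2 ratio of ESlncRNA over vector (vertical axis) of the 75 tested members against the mean log2 intensity of the probe (horizontal axis), 1 panel per processing, coloured by the call after loess. After loess higher and lower members occur at all intensities. With median centring 73 of the 75 members are called higher, and 77.5% of all called genes are higher.

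Some members gave different values through different probes. Of 22 members with several kept probes, 12 had the same call on every probe and 10 had a passing and a not passing probe, with 0 called in opposite directions. Those 10 were Mrpl49, Mrpl50, Mrpl27, Mrps33, Mrps26, Mrpl40, Mrps25, Mrps18b, Mrpl39 and Mrpl4. The spread between probes of 1 gene had a median of 0.129, against a median difference between arrays of 0.0523, and it was the larger in 12 of 22. Mrpl49 had the widest spread, 0.42. Mrpl50, a large subunit protein without a bacterial counterpart, had a spread of 0.38, and the sequences of its 2 probes are given because the same gene reads differently through them. Bases are in lower case, as no stretch is singled out, and both probes lie on the minus strand of chromosome 4 in mm9, at chr4:49525602-49525661 (probe 1) and chr4:49527089-49527148 (probe 2), with starts 1487 bases apart.
Mrpl50 probe 1: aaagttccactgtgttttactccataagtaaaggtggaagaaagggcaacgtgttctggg
Mrpl50 probe 2: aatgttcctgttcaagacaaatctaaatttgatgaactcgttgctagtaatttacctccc
Probe 1, the brighter and the one used for the gene, had log2 ratios of -0.04 and -0.02 (mean -0.03, adjusted p = 0.628). Probe 2 had 0.34 and 0.37 (mean 0.35, adjusted p = 0.000931). The difference between them stayed between 0.31 and 0.45 over 6 processings that change the background correction or the normalization, so it did not turn with the scaling. Mrpl49, also a large subunit protein without a bacterial counterpart, had 0.44 and 0.36 at chr19:6053882-6053941 (mean 0.40, SD 0.057, adjusted p = 6.86e-04) but -0.02 and -0.03 at chr19:6054680-6054739, with starts 798 bases apart. Its place among the 10 highest members therefore rests on 1 of its probes, and the difference between probes was 0.28 to 0.43 over the same processings. Mrpl27 had -0.05 and 0.00 at chr11:94521032-94521091 and 0.28 and 0.32 at chr11:94521320-94521379, with a difference of 0.27 to 0.32. Which transcripts or parts of a transcript each of these probes reads was not analysed here.

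**Figure D4:**
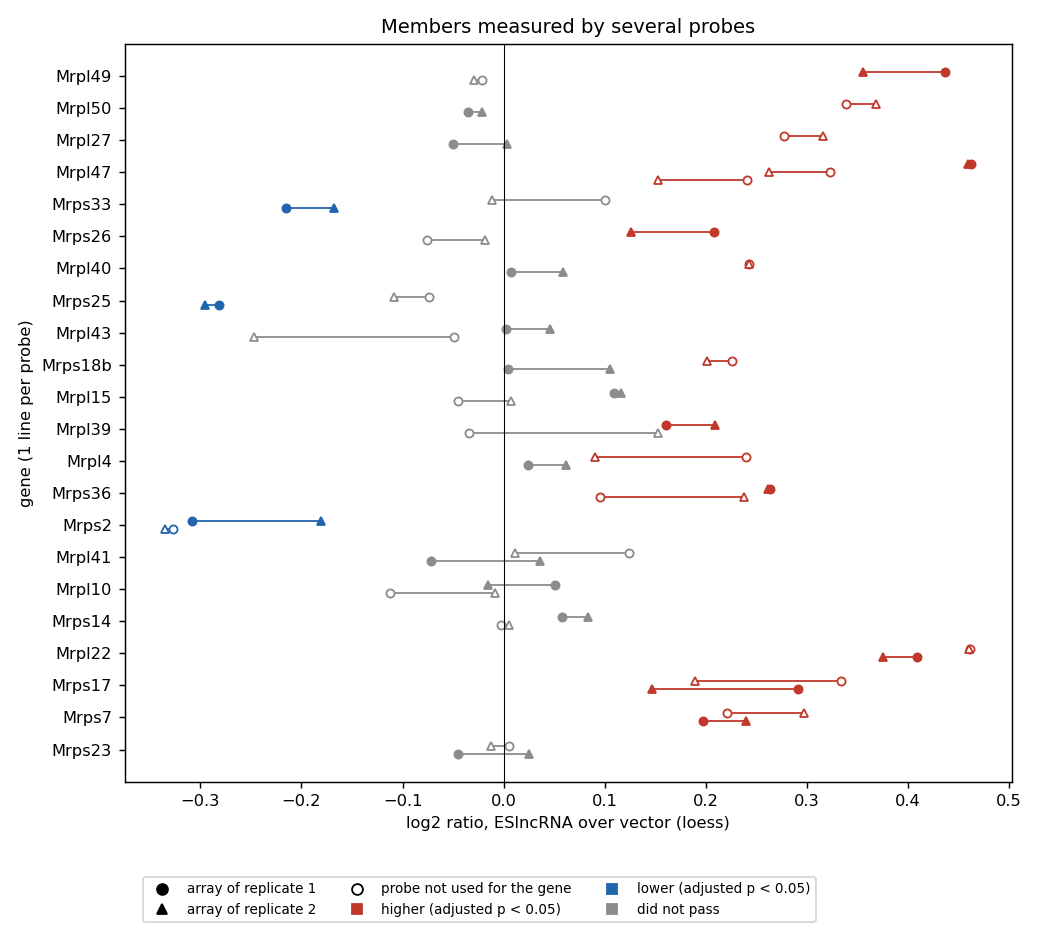
Log2 ratio of ESlncRNA over vector after loess (horizontal axis) on each array for the members with several kept probes (vertical axis, 1 line per probe, open symbols for probes not used for the gene), coloured by the limma call. Mrpl49, Mrpl50 and Mrpl27 have probes 0.42, 0.38 and 0.32 apart, and 0 of 22 members have probes called in opposite directions.

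The promoters of the members held a few shared sequence words. RefSeq windows of assembly GRCm38.p6, from 250 bases before to 50 after the start, matched 67 of 77 members with 73 windows. Exact matches on both strands were counted for 8-base words of factors known for nuclear genes of mitochondria, and none of these words contains another. The NRF1 word GCATGCGC occurred in 8 of the 73 windows (11%) and in 2.71% of all 32851 windows. The ETS word CCGGAAGT, read by factors such as GABP, occurred in 12 (16.4%, against 3.89%), and the YY1 word AAGATGGC in 12 (16.4%, against 2.75%). Among words of general promoters, CCAAT occurred in 41.1% against 37.4%, GGGCGG in 52.1% against 35.7%, CACGTG in 9.59% against 7.15% and TATAAA in 6.85% against 13.6%. By call after loess, the ETS word was in 6 of 24 windows of higher members, 3 of 18 of lower members and 3 of 30 of those that did not pass. The YY1 word was in 6 of 24, 0 of 18 and 6 of 30, and the NRF1 word in 3, 1 and 4. Mrpl2 and Mrpl48, both lower, and Mrps16, higher, have several windows each, so these are not shares of genes. A match is a description of these letters, not a binding site. Windows are shown for a high member with the ETS word (Mrps22, chr9:98601630-98601929, minus strand), a low member with the ETS and NRF1 words side by side (Mrpl33, chr5:31613701-31614000, plus strand) and a high member with the YY1 word just after the start (Mrpl49, chr19:6057706-6058005, minus strand), with the words in capitals.
Mrps22: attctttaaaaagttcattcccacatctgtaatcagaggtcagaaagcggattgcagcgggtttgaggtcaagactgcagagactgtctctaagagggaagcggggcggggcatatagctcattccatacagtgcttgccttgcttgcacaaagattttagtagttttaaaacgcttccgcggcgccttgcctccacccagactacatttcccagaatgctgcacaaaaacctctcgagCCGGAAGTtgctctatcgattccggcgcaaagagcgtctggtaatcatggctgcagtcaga
Mrpl33: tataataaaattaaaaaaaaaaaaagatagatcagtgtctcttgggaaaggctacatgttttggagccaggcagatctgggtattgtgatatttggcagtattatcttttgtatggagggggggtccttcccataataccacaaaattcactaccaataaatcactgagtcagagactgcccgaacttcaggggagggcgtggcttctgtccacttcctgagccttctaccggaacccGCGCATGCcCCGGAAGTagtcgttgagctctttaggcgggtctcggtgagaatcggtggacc
Mrpl49: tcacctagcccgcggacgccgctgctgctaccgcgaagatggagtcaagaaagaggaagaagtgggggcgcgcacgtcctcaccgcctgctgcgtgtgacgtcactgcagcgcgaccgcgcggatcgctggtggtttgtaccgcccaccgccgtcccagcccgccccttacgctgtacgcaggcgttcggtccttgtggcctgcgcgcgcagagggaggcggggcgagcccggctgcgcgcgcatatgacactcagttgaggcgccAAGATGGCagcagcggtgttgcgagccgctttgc
The ETS word began 11 bases before the start in Mrps22 and 3 bases before it in Mrpl33. There the reverse complement of the NRF1 word, GCGCATGC, began 12 bases before the start. Mrps22 and Mrpl33 thus carry the same ETS word next to the start, with mean ratios after loess of 0.45 and -0.47.

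Many members start back to back with another gene. Within 1000 bases upstream, on the other strand, 25 of 67 members (37.3%) had the start of a neighbour, against 3303 of 27025 genes (12.2%) in the same table. Both genes were measured in 22 such pairs. In 3 pairs both genes were higher, in 1 both were lower, in 2 they had opposite calls, and in 16 at least 1 did not pass. After loess 33.3% of members and 26.3% of all genes were higher, and 20% and 36.8% were lower. The same counts over the back-to-back pairs of all genes were not made. Whether neighbours move together was not tested. The neighbours named next were chosen after their values were seen. Mrps5 and Zfp661, whose starts lie 332 bases apart, had 0.42 and 0.27 (adjusted p for Zfp661 0.0032). Mrps18c and Helq, a DNA helicase gene, lie 159 bases apart and had 0.33 and 0.64 (adjusted p for Helq 7.67e-05). Mrpl49 and Fau, which encodes a ubiquitin-like protein fused to a cytosolic ribosomal protein, lie 192 bases apart and had 0.40 and 0.30 (adjusted p for Fau 0.00268), but Fau was at -0.28 with centred processed signals. These pairs moved to the same side after loess. Mrpl2 and Klc4, a kinesin light chain gene, lie 141 bases apart and had -0.22 and -1.14 (adjusted p for Klc4 4.53e-06). Mrpl55 and 2610507I01Rik, 55 bases apart, had 0.19 and -0.50, but Mrpl55 was at -0.02 with centred processed signals. Mrpl18 and Tcp1, a subunit of the cytosolic chaperonin, 238 bases apart, had 0.15 and -0.15, with Tcp1 at 0.71 under median centring. Mrpl46 and Mrps11, both members, start 42 bases apart and count as a pair for each.

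Other genes of mitochondrial gene expression also had differences in both directions after loess. Of 7 mitochondrial ribosome subunits under other names, 1 was higher, Gadd45gip1 (0.15, limma adjusted p = 0.0453), and 1 lower, Ict1 (-0.17, adjusted p = 0.0217). Of 26 factors of ribosome assembly and rRNA modification, 13 were higher, 4 lower and 9 did not pass (median 0.13). Mrm1, a methyltransferase of mitochondrial rRNA, had the largest ratio among them, 0.49 and 0.56 (mean 0.53, adjusted p = 1.72e-04), and Mett5d1, another rRNA methyltransferase, the lowest (-0.46, adjusted p = 2.68e-04). Of 15 translation factors, 4 were higher, with Gfm2 of ribosome recycling at 0.44 (adjusted p = 4.27e-04), and 3 lower, with the initiation factor Mtif2 at -0.29 (adjusted p = 0.0024); their median was 0.04. Transcription and RNA processing factors of mitochondria gave 7 higher, 3 lower and 8 not passing of 18 (median 0.09), from Pnpt1, an RNA-degrading enzyme, at 0.40 to Hsd17b10, a subunit of the RNase that trims tRNAs, at -0.38. Import genes gave 9 higher, 4 lower and 12 not passing of 25 (median 0.02), from the matrix chaperonin Hspd1 at 0.52 to Samm50, which inserts outer membrane proteins, at -0.32. Tricarboxylic acid cycle genes gave 4 higher and 4 lower of 17 (median 0.03), with subunits of 1 enzyme at both ends, Idh3a at 0.48 and Idh3g at -0.28. Of 12 protein genes of mitochondrial DNA, the products of this ribosome, a list added after the files were seen, 2 were higher, 4 lower and 6 did not pass (median 0.0028), from ND6 at 0.25 to ND5 at -0.35, both subunits of respiratory complex I.

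The proteins of the cytosolic ribosome, which translates the members' own messages, had 54 of 78 higher, 4 lower and 20 not passing, with a median of 0.34 after loess but -0.21 with centred processed signals. Rplp0 of the cytosolic stalk had 1.1 and 0.91 (mean 1.0), and Rps21 had the lowest mean, -0.34. Of them 11 reached 1.5-fold on each array after loess, against 0 of 75 members, and the difference between the families was not tested. Under median centring the medians of these 8 lists ran from 0.57 to 1.40, and with centred processed signals from -0.34 to 0.05, so Ict1, Mtif2, Hsd17b10, Samm50, Idh3g, ND5 and Rps21 turned above 0 with the first and Gadd45gip1 below 0 with the second.

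**Figure D5:**
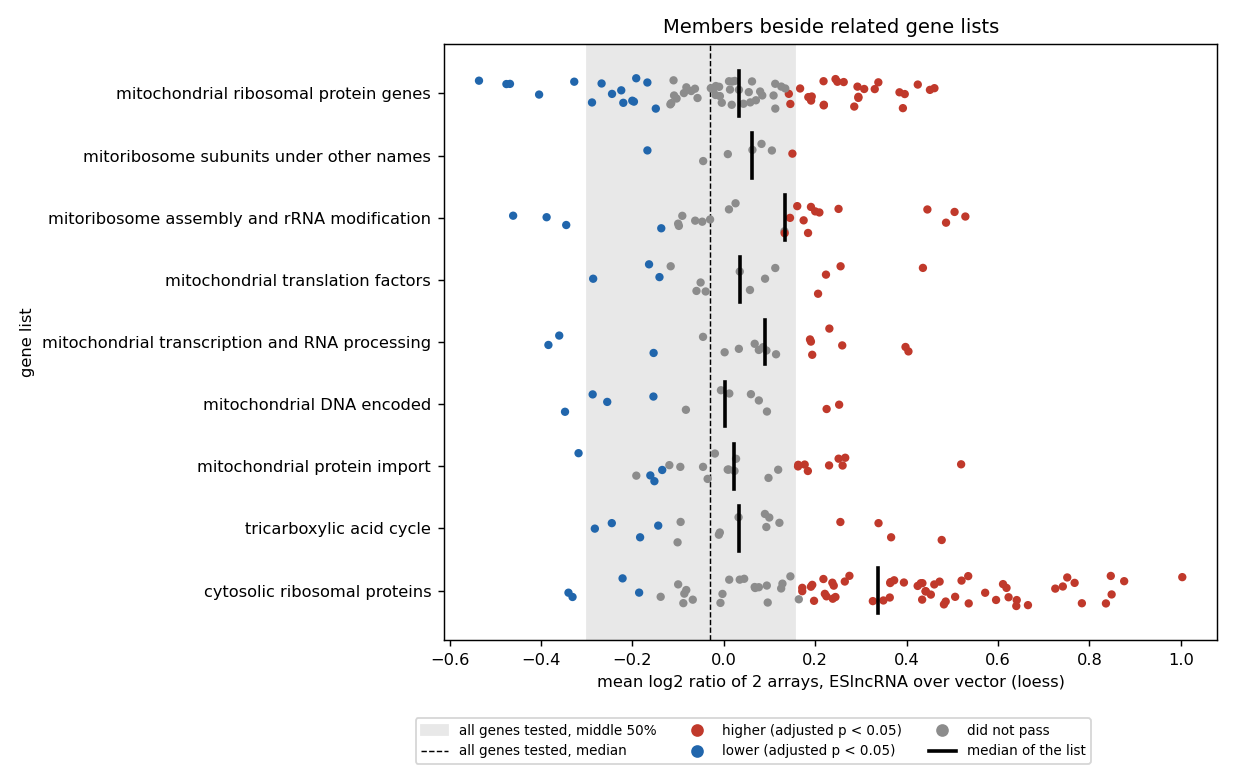
Mean log2 ratio of ESlncRNA over vector after loess (horizontal axis) for the members and the related gene lists (vertical axis), 1 point per gene coloured by its call, with each list's median as a bar and the median (-0.03) and middle 50% of all genes tested in the background. The members' median lies at 0.03 and that of the cytosolic ribosomal proteins at 0.34, which is -0.09 and -0.21 with centred processed signals.

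The median ratios of 4 marker lists of other blood cells lay further from 0 than any member after loess. Of 10 granulocyte markers, 10 were lower with ESlncRNA, with a median log2 ratio of -4.49; their signals summed to 756924 and 769178 in the vector channel and to 64069 and 80860 in the ESlncRNA channel, with 0 of 10 not above background in either. Of 7 macrophage markers tested, 7 were lower (median -2.24), and 4 of the 8 listed were not above background in the ESlncRNA channel. Of 14 erythroid markers, 11 were higher after loess and 3 did not pass (median 0.71), with sums of 232564 and 188061 in the vector channel and 723289 and 684227 in the ESlncRNA channel, so the labelled cell type was present in all 4 RNA samples. Of 7 megakaryocyte markers, 7 were lower (median -1.85). Of 5 stem and early progenitor markers tested, Cd34, Meis1, Flt3 and Hlf were lower and Kit higher (median -2.91), and of 5 hepatocyte markers 4 were lower (median -0.86). In bulk RNA, fewer cells of a type and less RNA per cell cannot be told apart, and the part of these markers in the members' ratios was not tested. The housekeeping genes Actb, Gapdh and Tbp had mean ratios of 0.40, 0.31 and 0.41 after loess (adjusted p = 6.02e-04, 0.00386 and 5.73e-04), but Actb and Gapdh were at -0.24 and -0.30 with centred processed signals.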

How the data were processed

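Two-colour Agilent arrays of 2 replicates were used, each setting RNA of ESlncRNA-transduced cells (Cy5, per the labels) against RNA of vector-transduced cells (Cy3); the labels state 100 ng of input RNA for replicate 2. Feature Extraction 10.1.1.1 quantified the scans, and probe coordinates are on mm9, per the file headers. The deposited intensity values used are each spot's mean signal and median local background, and, as an alternative, the processed signal, from which the software had removed background and dye bias, per the file headers. Per the file headers, a log10 ratio (Cy5 over Cy3) was also deposited, and it only checked the direction. The authors' deposited log2 values, made with limma per the submitters' processing notes, had medians of -0.02 and -0.01 and correlated at r = 0.99996 on each array with ratios made here by loess without background correction, which set their scale and direction; they served as an alternative.

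In R 4.3.3 with limma 3.58.1, normexp (offset 50) corrected the background and loess normalized each array, with control and outlier-marked spots (284 and 308 of 59305) at weight 0; 0 spots were saturated. Replicate spots were averaged. A probe was kept, as 26791 of 55681 were, if on each array at least 1 channel was well above background. Among the members' 100 probes, 98 were kept, and all 98 were above background in both channels. A gene was represented by its kept probe of highest intensity, under the symbol in the file, which can be old. An intercept was fitted to both log2 ratios (degrees of freedom: 1 residual, 5.27 prior), with Benjamini-Hochberg adjustment over every kept probe and a threshold of 0.05. The limma fit and the calls were tested on simulated ratios, which did not pass through background correction, loess or the filter. The number of arrays limits the precision. The rule for the members uses names only, but this gene family and the lists were chosen with earlier results of these data known. Named members are the 10 higher and 10 lower ones of largest mean ratio that passed with 1 sign on both arrays, with 3 housekeeping genes; of each related list the largest passing gene in each direction is given, from a rule of 3 each way. Alternatives changed the background correction, normalization, filter, probe rule, source of values and pairing of channels.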

Additional observations from a re-analysis of the deposited data

How the results depend on the processing

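The counts and medians depended most on the normalization. Median centring in place of loess gave 12521 genes higher and 3640 lower, 73 members higher and 0 lower, and a members' median of 0.77. Agilent's processed signals centred on the median gave 2799 genes higher, 5 members higher and a members' median of -0.092. The same signals without further centring, an alternative chosen after seeing the data, gave 4706 genes lower, 6 members lower and a members' median of 0.15. Both channels fitted as separate samples, with no replicate block for the pairing on an array, gave 3434 genes higher, 18 members higher and 10 lower. With median centring, which placed the median of all genes at 0.34, called values changed sign against 0 for Mrpl48 (0.15), Mrps10 (0.15), Mrpl33 (0.48), Mrpl24 (0.37), Mrpl23 (0.53), Mrps25 (0.49), Mrpl19 (0.30), Mrps2 (0.32), Mrps34 (0.54), Mrpl2 (0.62), Ict1 (0.60), Mtif2 (0.51), Hsd17b10 (0.40), Samm50 (0.43), Idh3g (0.61), Rps21 (0.42), ND5 (0.35) and Tcp1 (0.71); of these, Mrpl48, Mrps10, Mrpl19 and Mrps2 lay below that median. The last 5 lower members, Mrpl44 (0.45), Mrps31 (0.43), Mrps33 (0.61), Mrpl51 (0.71) and Mrpl53 (0.49), also turned with median centring. With centred processed signals Gadd45gip1 (-0.065), Fau (-0.28), Actb (-0.24) and Gapdh (-0.30) turned. The higher members Mrps17 (-0.028), Mrpl55 (-0.020), Mrps26 (-0.14) and Mrps16 (-0.092) turned as well. Without further centring Fau (-0.045), Actb (-0.0013), Gapdh (-0.063) and the lower member Mrps31 (0.0095) did, and averaging all probes per gene turned Gapdh (-0.10). The share of higher among called members was 62.5% after loess, 100% with median centring, 29.4% with centred processed signals and 82.9% without further centring; over all genes it was 41.7%, 77.5%, 29.3% and 59.2%. Offset 0, no background subtraction, no filter, a filter on both channels, the mean of probes and the deposited values gave 17 to 27 members higher and 10 to 15 lower. Leaving out a replicate left 1 array and no test, with members' medians of 0.02 to 0.06. The causes of these changes were not tested.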
